A study of Mus musculus with 24 samples.

Results

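The miR-29 family in serum extracellular vesicles (EVs) was followed after surgery in mice. The members were chosen by name from the deposited table of mature miRNA counts: mmu-miR-29a-3p, mmu-miR-29b-3p, mmu-miR-29c-3p, mmu-miR-29a-5p and mmu-miR-29c-5p, written below without the species prefix, which are 5 of the 1966 mature miRNAs listed. Small RNA was sequenced from 24 libraries, 1 per mouse, from wild type C57BL/6 mice aged 14 to 16 weeks, with 6 mice in each of the groups Control, S6h, S24h and S72h. The surgery groups had an open tibia fracture stabilized with a pin under isoflurane anesthesia with buprenorphine, and serum was taken 6, 24 or 72 h later. Mice of the S24h and S72h groups also received analgesia every day, whereas Control mice had no surgery and were given saline. EVs were isolated from serum with the ExoQuick ULTRA kit, so that the vesicles of all cell types that release into blood were pooled, and fewer vesicles of one source and less miRNA per vesicle cannot be told apart. Per the study's methods, the Control group is the set of control mice assigned to the 6 h time point (C6h), and it was used for all miRNA comparisons because the methods state no statistical difference from the other set (C24-72h), which was not analysed here. In the comparisons of S24h and S72h with Control and with S6h, time after surgery therefore cannot be told apart from the set of animals handled together or from daily analgesia. No group had anesthesia and analgesia without surgery, so that in all comparisons with Control, surgery cannot be told apart from isoflurane or buprenorphine.

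miRNAs are short RNAs that guide a silencing complex to messenger RNAs, mainly through pairing of bases 2 to 8, the seed, with sites in the 3′ untranslated region. A hairpin precursor is cut into a 5p and a 3p arm, and usually one arm is kept and the other degraded. The miR-29 family is known for repressing collagens, elastin and other matrix genes in fibroblasts, and its loss accompanies fibrosis in several organs.

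The mature sequences are shown first because the 3p members share their seed and differ from each other at few bases, which bears on how reads can be assigned to them. The sequences are from RefSeq on GRCm38.p6, written 5′ to 3′ with the seed in capitals.
miR-29a-3p: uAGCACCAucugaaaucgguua
miR-29c-3p: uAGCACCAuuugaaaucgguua
miR-29b-3p: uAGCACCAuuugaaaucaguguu
miR-29a-5p: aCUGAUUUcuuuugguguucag
miR-29c-5p: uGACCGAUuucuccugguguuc

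All 3 members from the 3p arm had the same seed, and no other of the 1675 mature miRNAs of the table with a RefSeq sequence had it. With positions counted from 1 at the 5′ end, miR-29a-3p and miR-29c-3p differed by the single substitution C10U. miR-29c-3p and miR-29b-3p differed by G18A, U21G and A22U, and miR-29b-3p was 23 bases long against 22 for the other two. The 5p members had different seeds, and neither seed occurred in another matched miRNA. Whether a read could be counted with a mismatch is not given in the sources used here, so that the split of reads between miR-29a-3p and miR-29c-3p is uncertain.

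The family is encoded by a pair of clusters. On GRCm38, Mir29a lies at chr6:31062660-31062747 and Mir29b-1 at chr6:31063023-31063093, both on the minus strand with 275 bases between them. Mir29b-2 lies at chr1:195037040-195037120 and Mir29c at chr1:195037547-195037634, both on the plus strand with 426 bases between them. Mir29c and Mir29b-2 lie inside the noncoding gene A330023F24Rik on the same strand and inside Cd46 on the opposite strand, and overlap an exon of each. Mir29b-1 partly overlaps an exon of the lincRNA Gm27019 on the same strand, and no other annotated gene overlapped Mir29a. miR-29b-3p is made from both clusters with the same sequence, so that its counts cannot be assigned to a locus.

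The letters TGGTGCT, which pair with the shared seed, were searched on the transcribed strand in annotated 3′ untranslated regions, and 2758 of 21037 genes (13.1%) held them at least once. Among 15 matrix genes listed for the family, 12 held them, with 20 matches in all, and Col1a2, Sparc and Serpinh1 held none. Regions differ in length between genes, and in the first 1000 bases, where the region was at least that long, 5 of 9 of these matrix genes and 10.03% of 10245 genes held the letters. The matrix genes were listed as known or likely targets, and a match is a description of the sequence only. The first match in the region is shown for Col1a1 and Col3a1, which encode fibrillar collagens, Eln (elastin) and Fbn1 (fibrillin) on GRCm38, with the letters that pair with the seed in capitals. Each is followed by A, as were 12 of the 20 matches.
Col1a1, chr11:94952522-94952545, plus strand: ggtgggaaggaatttcTGGTGCTa
Col3a1, chr1:45348966-45348989, plus strand: cttcaaaatgtctcaaTGGTGCTa
Eln, chr5:134703736-134703759, minus strand: gcgacctcatcaacgtTGGTGCTa
Fbn1, chr2:125301173-125301196, minus strand: gtttctgttgtctgttTGGTGCTa

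Total counts per library ranged from 63956 to 471801, with a median of 75030 in the S24h group, 94427.5 in the S72h group, 117578.5 in the Control group and 177467.5 in the S6h group. Levels are given as CPM, the count of a miRNA scaled by the total of its library. For a miRNA without a count the limit was set at 3 counts, or 6.36 to 46.9 CPM over the libraries, and such limits cover counting error only. A miRNA was tested when it reached 10 CPM in at least 12 libraries, which left 252 miRNAs. Among the members, miR-29a-3p, miR-29c-3p and miR-29b-3p passed, and miR-29a-5p and miR-29c-5p did not. A change was called when edgeR's quasi-likelihood test gave a Benjamini-Hochberg adjusted p under 0.05 and the fold change was at least 1.5.

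miR-29a-3p was the main form of the family and was lowest at 24 h after surgery. It was detected in all 24 libraries and ranked 23 of the 1966 listed miRNAs by mean CPM in the Control group. Control libraries ranged from 7458 to 14168 CPM with a median of 11283, and S6h libraries from 10293 to 17053 CPM with a median of 12348. S24h libraries ranged from 3868 to 5623 CPM with a median of 5085, and S72h libraries from 3834 to 13902 CPM with a median of 6970. Every S24h library was below every Control and every S6h library, whereas the S72h libraries were spread over the ranges of the other groups. Mean levels were 10981 ± 2664 CPM in Control, 13101 ± 2811 in S6h, 4910 ± 665 in S24h and 7489 ± 3691 in S72h (SD, n = 6 each).

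Relative to Control, miR-29a-3p fell by 1.31 on the log2 scale at 24 h (SE 0.26, edgeR quasi-likelihood adjusted p = 0.000782), a level 2.48-fold lower. In this comparison 11.9% of the 252 tested miRNAs were called (7.94% lower and 3.97% higher), and the CPM ranges of the groups did not overlap for 4.76% of them. Scaling moved the centre of all miRNAs: the median log2 change over the tested miRNAs was -0.21 with TMM scaling, -0.06 with RLE scaling and -0.03 with column totals. Relative to that median, the change of miR-29a-3p was -1.10 with TMM, -1.10 with RLE and -1.13 with column totals.

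Between S6h and S24h the difference was larger. miR-29a-3p was 3.15-fold lower at 24 h than at 6 h (log2 change -1.66, SE 0.26, edgeR quasi-likelihood adjusted p = 3.0e-05), in a comparison in which 20.2% of the tested miRNAs were called, 13.9% as lower, and 10.3% had ranges that did not overlap. At 6 h the level did not differ from Control beyond the spread between mice (log2 change 0.35, SE 0.25, edgeR adjusted p = 0.991). No miRNA was called at 6 h by edgeR or DESeq2, which is 0% of those tested, and 9 had an unadjusted p under 0.05 in edgeR.

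At 72 h the level lay between those of 24 h and Control and was not separated from either of them. The log2 change from Control was -0.53 (SE 0.25, edgeR adjusted p = 0.252; 3.57% of miRNAs called), and that from S24h was 0.78 (SE 0.26, edgeR adjusted p = 0.127; 0.397% called). S72h was called lower than S6h (log2 change -0.88, SE 0.26, edgeR adjusted p = 0.0227; 9.92% called, 5.56% as lower). That call was lost with column totals (adjusted p = 0.0792), without a filter on low counts (0.168), with only both groups in the model (0.0581), and without S6h replicate 4 (0.0745), S6h replicate 6 (0.0742), S72h replicate 3 (0.0527) or S72h replicate 5 (0.0734), all by edgeR. S72h replicate 6 was the highest of its group at 13902 CPM, and without it the log2 change of S72h from Control was -0.76. In the order of mean levels (S6h, Control, S72h, S24h), no pair of neighbours differed by the test.

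**Figure D1:**
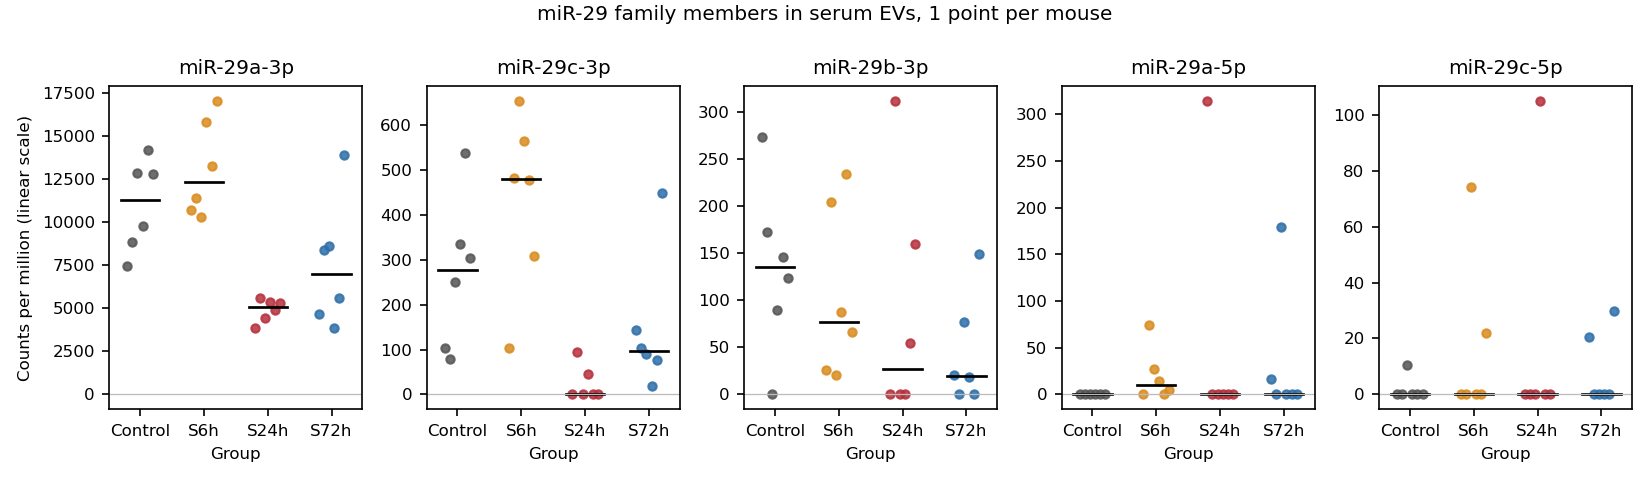
CPM (linear axes, a separate scale in each panel) of the 5 members by group, with 1 point per mouse and a black line at the group median. In the panel of miR-29a-3p the 6 S24h points lie between 3868 and 5623 CPM, below all Control and S6h points, and in the panel of miR-29c-3p 4 of the 6 S24h points are at 0.

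miR-29c-3p, which differs from miR-29a-3p by 1 base, was present at a far lower level and was almost undetected at 24 h. Counts in the Control libraries were 27, 5, 24, 45, 70 and 32 in replicates 1 to 6, and those in the S6h libraries were 20, 78, 97, 266, 49 and 70. In the S24h libraries they were 0, 7, 0, 3, 0 and 0, and in the S72h libraries 35, 8, 7, 2, 5 and 60. The miRNA was thus counted in every library of the other groups and in 2 of 6 libraries at 24 h. The Control library of lowest depth, with a total of 63956, had 5 counts, while the 4 S24h libraries without a count allow up to between 20.9 and 40.7 CPM.

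Mean levels of miR-29c-3p were 268 ± 169 CPM in Control, 432 ± 197 in S6h, 23.3 ± 39.4 in S24h and 147 ± 153 in S72h (SD, n = 6 each). Relative to Control it fell by 3.71 on the log2 scale at 24 h (SE 0.95, edgeR quasi-likelihood adjusted p = 0.00847). All 6 S24h libraries were below the Control median of 278 CPM, although the highest, at 94.9 CPM, was above the lowest Control library at 78.2 CPM. Relative to S6h it fell by 4.49 on the log2 scale (SE 0.97, edgeR adjusted p = 0.00111), and the ranges of these groups did not overlap. Since the S24h group held 10 counts of miR-29c-3p in all, the size of these folds is poorly fixed: leaving out S24h replicate 2, which held 7 of them, gave -5.13 against Control and -5.90 against S6h. With only both groups in the model the adjusted p against Control was 0.04995 (edgeR).

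No change of miR-29c-3p was called at 6 h (log2 change 0.77, SE 0.80) or at 72 h (-0.85, SE 0.81) relative to Control. The difference between S72h and S24h was 2.87 on the log2 scale (SE 0.93, edgeR adjusted p = 0.127), and it was called without S24h replicate 2 (adjusted p = 0.0250, edgeR). In the order of mean levels (S6h, Control, S72h, S24h), which was that of miR-29a-3p too, no pair of neighbours differed by the test.

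miR-29b-3p, the third member with the shared seed, was not called in any of the 6 comparisons. Counts were 72, 11, 0, 12, 19 and 13 in Control, 5, 33, 3, 41, 24 and 15 in S6h, 0, 23, 0, 0, 4 and 23 in S24h, and 5, 0, 6, 2, 0 and 20 in S72h. It was counted in 18 of 24 libraries, and the ranges of all groups overlapped. Mean levels were 134 ± 90.7 CPM in Control, 106 ± 91.3 in S6h, 87.6 ± 126 in S24h and 44.1 ± 58.8 in S72h (SD, n = 6 each). The log2 changes from Control were -0.31 at 6 h, -0.85 at 24 h and -1.61 at 72 h, with SE from 1.13 to 1.18 and edgeR adjusted p of 0.991, 0.697 and 0.501. With such errors a change as large as that of miR-29a-3p was not detectable at this depth.

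**Figure D2:**
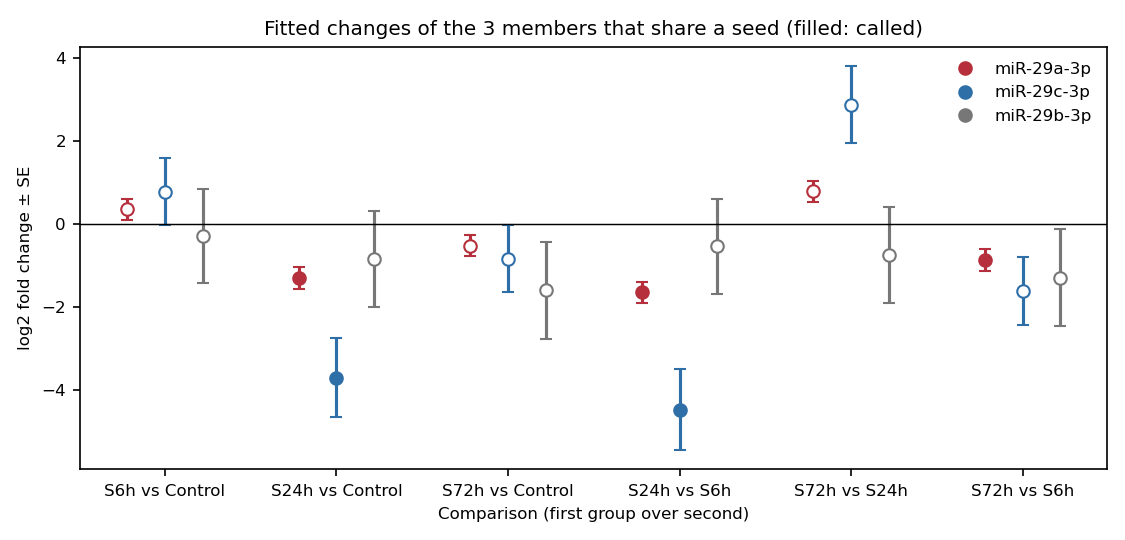
Fitted log2 fold change with SE (edgeR, n = 6 per group) of miR-29a-3p, miR-29c-3p and miR-29b-3p in each of 6 comparisons, the first group over the second; filled points were called. miR-29a-3p and miR-29c-3p were called lower at 24 h against Control (-1.31 and -3.71) and against S6h (-1.66 and -4.49), and only miR-29a-3p was called in S72h against S6h (-0.88).

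Because the 3 members share their seed, their counts were also summed. The sum was 11383 ± 2746 CPM in Control, 13639 ± 2823 in S6h, 5021 ± 784 in S24h and 7680 ± 3875 in S72h (SD, n = 6 each). miR-29a-3p made up 96.5% of the summed counts over all libraries, from 93.3% in S24h replicate 2 to all of the counts in S24h replicates 1 and 3. miR-29c-3p made up 2.57% and miR-29b-3p 0.934% over all libraries, but 0.36% and 1.8% in the S24h libraries. The sum thus followed the level of miR-29a-3p in every group.

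The ratio of miR-29c-3p to miR-29a-3p within a library does not depend on how libraries are scaled, and it was lower at 24 h. Counts of miR-29c-3p per 1000 of miR-29a-3p had a median over libraries of 21.7 in Control, 35.8 in S6h, 0 in S24h and 13.1 in S72h. Pooled over libraries, which weights them by depth, there were 24.6, 31.97, 3.68 and 22.9. The pooled value of S24h was 1.3 without S24h replicate 2, which held 7 of the 10 counts, and that of S72h was 17.6 without S72h replicate 6. At the pooled ratio of Control, the 2718 counts of miR-29a-3p in the S24h libraries would come with 66.8 counts of miR-29c-3p, against the 10 found (56.6 against 3 without S24h replicate 2). The mean log2 ratio, with 0.5 added to each count, was -5.57 ± 0.76 in Control and -8.63 ± 1.93 in S24h (SD, n = 6 each), a difference of -3.06 (exact two-sided permutation test, p = 0.0108, 0.0289 after Benjamini-Hochberg adjustment over 8 ratio tests). The ratio was lower than the Control median in 6 of 6 S24h libraries. Against S6h the difference was -3.54 (exact permutation test, adjusted p = 0.0173). No difference from Control was detected at 6 h (0.48, exact permutation test, adjusted p = 0.411) or at 72 h (-0.45, exact permutation test, adjusted p = 0.411).

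These ratios show unequal change of the 2 miRNAs and not which of them moved. In 4 S24h libraries the ratio rests on a count of 0 and on the added 0.5, and the difference from Control at 24 h was -4.62 with 0.1 added and -2.39 with 1 added. The adjusted p at 24 h against Control was 0.0577 (exact permutation test) when any one of 8 libraries was left out, namely Control replicates 3, 4, 5 and 6 and S24h replicates 1, 3, 5 and 6.

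**Figure D3:**
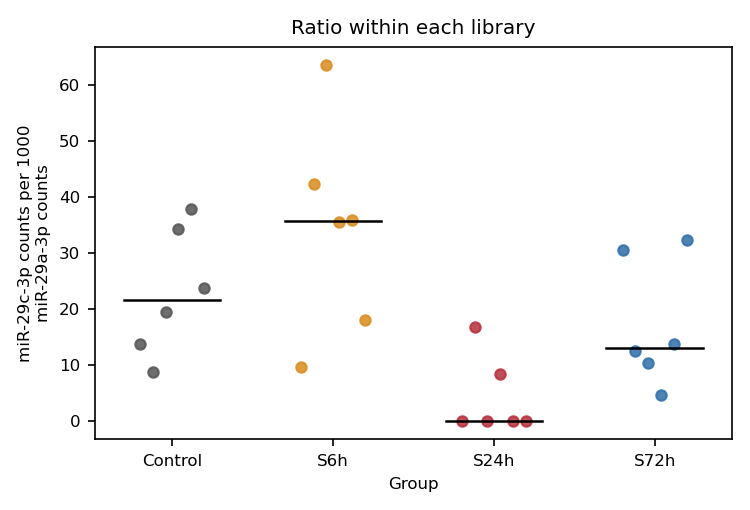
Counts of miR-29c-3p per 1000 counts of miR-29a-3p in each library (1 point per mouse), with a black line at the median of each group. The median was 21.7 in Control, 35.8 in S6h, 0 in S24h and 13.1 in S72h, and 4 of the 6 S24h points are at 0.

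The 5p arms were rare. miR-29a-5p had 66 counts in all and was at 0 in all 6 Control libraries, which allows up to between 11.4 and 46.9 CPM. It had 12, 4, 7 and 1 counts in S6h replicates 2, 3, 4 and 6, 24 counts in S24h replicate 1, and 4 and 14 counts in S72h replicates 1 and 3. A single library thus held all counts of the S24h group. miR-29c-5p had 33 counts in all, with 1 in Control replicate 3, 11 and 5 in S6h replicates 3 and 6, 7 in S24h replicate 4, and 5 and 4 in S72h replicates 1 and 6. Its libraries with counts were few in each group, and no group was at 0 throughout. In a fit without the filter, neither 5p member was called in any of the 6 comparisons (edgeR, lowest adjusted p = 0.0561, for miR-29a-5p at 24 h against Control). Of the other arms of these hairpins, miR-29b-1-5p had 126 counts in 14 libraries and miR-29b-2-5p had none.

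The log2 ratio of miR-29a-3p to miR-29a-5p was 11.3 ± 0.64 in Control, 10.1 ± 1.91 in S6h, 8.82 ± 2.59 in S24h and 9.16 ± 2.18 in S72h (SD, n = 6 each). The difference from Control passed the test at 24 h (-2.51, exact two-sided permutation test, adjusted p = 0.0173) and not at 6 h (-1.27, adjusted p = 0.287, exact) or 72 h (-2.17, adjusted p = 0.0649, exact). However, the 5p arm was at 0 in 17 of 24 libraries, where the ratio is only the count of miR-29a-3p over the added 0.5 and moves with its level and with library depth. In 5 of 6 S24h libraries this was so, and without S24h replicate 1, the library with a 5p count, the difference was -1.46. These values therefore do not measure a change in the balance of the arms.

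The 5 miRNAs most like miR-29a-3p were chosen by Pearson's r of log2 CPM (TMM scaling, prior count 4) over the 24 libraries, among 251 tested miRNAs with a median r of 0.11. The libraries share group structure and depth, so that r is a description. miR-29c-3p was first (r = 0.890, Spearman's rho = 0.871), followed by miR-27b-3p (r = 0.879, rho = 0.875), miR-22-3p (r = 0.862, rho = 0.839), miR-143-3p, a miRNA of smooth muscle and other mesenchymal cells (r = 0.839, rho = 0.833), and miR-215-5p (r = 0.813, rho = 0.835). With the group means removed the values were lower, at 0.617, 0.544, 0.616, 0.479 and 0.394, and miR-29c-3p then ranked 4 and miR-215-5p 25. Without the libraries farthest from the median of miR-29a-3p, S6h replicate 4 and S24h replicate 1, r of the 5 ranged from 0.816 to 0.882. miR-29b-3p ranked 74, with r of 0.389.

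Since these miRNAs were chosen for their likeness over the same libraries, their levels at 24 h follow in part from that choice and are given as a description. miR-27b-3p was at 8273 ± 2432 CPM in Control and 2499 ± 654 in S24h, and miR-22-3p at 8939 ± 4256 and 3162 ± 1111 CPM (SD, n = 6 each). Their log2 changes at 24 h against Control were -1.88 and -1.69. For miR-143-3p the change was -3.25 and for miR-215-5p -3.98. At 72 h against Control the change of miR-143-3p was -2.38.

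**Figure D4:**
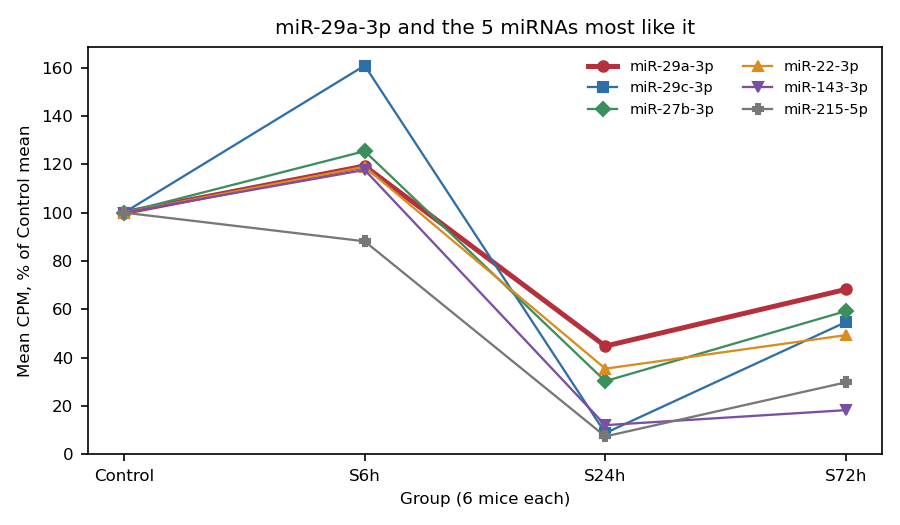
Mean CPM of each group as a percentage of the Control mean (n = 6 mice per group) for miR-29a-3p and the 5 miRNAs with the highest correlation with it. All 6 have their lowest mean at 24 h; the mean of miR-29a-3p was 10981 CPM in Control and 4910 CPM in S24h, and that of miR-143-3p 29994 and 3596 CPM.

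Other miRNAs linked to fibrosis were taken from a list, chosen with earlier results of these data known. Most were listed for their known roles. However, miR-145a-3p, miR-148a-3p and miR-25-3p were listed because the study links them to matrix among its miRNAs lower at 24 h in these libraries. Of 15 linked to restraint of fibrosis, all of which passed the filter, 3 were called lower and 1 higher at 24 h against Control, where 7.94% of all tested miRNAs were called lower and 3.97% higher. The 4 called are miRNAs that the study itself names as changed at 24 h in these libraries, the same 3 as lower and the other as higher, so that their counts are not independent evidence of a direction. The median log2 change was -1.08 over the 15 and -0.94 over the 11 others, a split added after the data were seen, beside -0.21 over all tested miRNAs. miR-145a-3p (-2.17), miR-148a-3p (-1.62) and miR-25-3p (-1.29) were called lower (edgeR adjusted p = 0.0141, 0.0239 and 0.0152). miR-145a-5p, the other arm of the miR-145a hairpin and not on the list, was called higher (log2 change 1.19, edgeR adjusted p = 0.0111). miR-26a-5p was called higher, from 13152 ± 4492 CPM in Control to 29516 ± 8548 CPM in S24h (SD, n = 6 each; log2 change 1.02, edgeR adjusted p = 0.0260). Against S6h, 8 of the 15 were called lower at 24 h, of which 6 were among the 11 others, and none higher. Of all tested miRNAs 13.9% were called lower and 6.35% higher in this comparison.

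Of 8 miRNAs linked to promotion of fibrosis, 7 passed the filter and none was called in any of the 6 comparisons (edgeR), in which 0% to 20.2% of all tested miRNAs were called. At 24 h against Control 4 of the 7 log2 changes were negative and 3 positive, with a median of -0.79. miR-21a-5p, the most abundant of them and known to rise in fibrotic tissue, was at 63353 CPM in Control and 78454 CPM in S24h (means, SD 24404 and 16117, n = 6 each; log2 change 0.17, SE 0.33, edgeR adjusted p = 0.782).

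**Figure D5:**
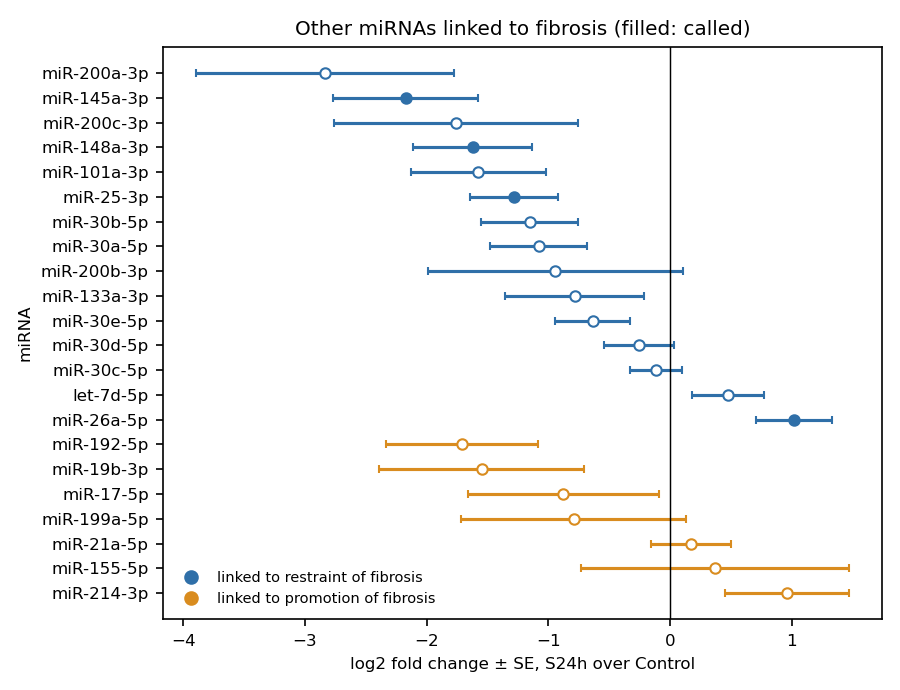
Log2 fold change with SE of S24h over Control (edgeR, n = 6 per group) for the listed miRNAs that passed the filter, 15 linked to restraint (blue) and 7 linked to promotion of fibrosis (orange); filled points were called. 3 of the first group were called lower and miR-26a-5p was called higher, and none of the second group was called.

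Marker miRNAs of several blood and tissue sources were read beside the family. Of all tested miRNAs, 7.94% were called lower and 3.97% higher at 24 h against Control, and 13.9% lower and 6.35% higher against S6h. Of 5 erythroid markers (such as miR-451a and miR-486a-5p), 3 were called lower at 24 h against Control, of which miR-486a-5p and miR-486b-5p have the same mature sequence and are 1 molecule listed under a pair of names. Their summed level ranged from 104004 to 189168 CPM in Control, from 72815 to 123877 in S6h, from 29669 to 121689 in S24h and from 41660 to 170191 in S72h. Of 5 tested muscle markers of 7 listed, 3 were called lower in S24h against S6h and none against Control. Their summed level ranged from 34151 to 90196 CPM in Control, from 60182 to 265504 in S6h, from 15682 to 43550 in S24h and from 6442 to 237408 in S72h, and the heart muscle marker miR-208b-3p was at 0 in all groups. Of 5 tested mesenchymal markers of 6 listed, miR-143-3p and miR-199a-3p were called lower and miR-145a-5p higher at 24 h against Control. Their summed level ranged from 12450 to 84332 CPM in Control, from 18730 to 70046 in S6h, from 9965 to 20471 in S24h and from 7420 to 22265 in S72h, with miR-199b-5p at 0 in Control. Of the platelet, leukocyte, liver and neuronal markers tested, none was called at 24 h against Control (edgeR). The summed level of the liver markers, mainly miR-122-5p, set single libraries apart: it ranged from 127095 to 160092 CPM in Control replicates 1, 4 and 6 and from 3706 to 9976 in the other 3 Control libraries, from 2214 to 28328 in S6h and from 7892 to 52209 in S24h, with medians of 68536 in Control and 18523 in S24h. miR-29a-3p was at 7458, 9767 and 12799 CPM in Control replicates 1, 4 and 6 and at 8834, 12858 and 14168 CPM in the others, above every S24h library in each. In S72h the liver markers ranged from 4768 to 299754 CPM, the highest in replicate 4, which had the lowest level of miR-29a-3p in its group before TMM scaling (3834 CPM) but not after it (6396 CPM). Against S6h at 24 h, 1 of 5 erythroid markers, miR-451a, was called lower (log2 change -1.27, edgeR adjusted p = 0.0337). Of 5 tested mesenchymal markers, miR-143-3p (-3.54, edgeR adjusted p = 1.8e-05) and miR-199a-3p (-2.26, edgeR adjusted p = 0.00049) were called lower. miR-145a-5p, also of that list, was called higher (1.41, edgeR adjusted p = 0.00159). In the same comparison, miR-223-3p, listed as a platelet marker, was called lower (log2 change -1.06, edgeR adjusted p = 0.0226). The other platelet markers of the 3 listed, miR-126a-3p (0.24) and miR-126a-5p (-0.12), were not called. Of 4 leukocyte markers, only miR-150-5p was called, as higher (1.39, edgeR adjusted p = 0.0121). Neither the liver marker tested, 1 of 2 listed, nor the neuronal markers tested, 2 of 4 listed, were called. The part of these sources in the levels of miR-29 was not tested.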

How the data were processed

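Counts per mature miRNA were deposited by the authors as whole numbers without normalization. Per the study's methods, reads were trimmed with cutadapt, aligned to GRCm38 with Bowtie, selected by length with Samtools and counted with featureCounts on miRBase; the random bases were trimmed from the reads. The handling of reads with several positions, and whether the random bases served to remove duplicates, is not given in the sources used here. Libraries were grouped by the sample labels, and no 2 libraries were identical. In R 4.3.3, 1 edgeR 4.0.16 quasi-likelihood model with TMM scaling was fitted to the 4 groups for 252 of 1966 miRNAs (at least 10 CPM in 12 of 24 libraries), which held 99.7% of counts. Ratios were compared by exact permutation over 924 assignments (scipy 1.17.1). Alternatives were DESeq2 1.42.0, RLE scaling, column totals, other filters, only the groups compared, a replicate block and leaving out each library. Members and lists were chosen with earlier results of these data known. Named miRNAs are the members, the other arms, the 5 most correlated with miR-29a-3p, called members of the fibrosis list and marker miRNAs. miR-21a-5p was named after its values were seen. With totals from 63956 to 471801 counts per library, low counts limit the rarer members. The model was also run on simulated counts with known changes, the outcome of which is not given here. Untranslated regions were taken from Gencode on GRCm38.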

Additional observations from a re-analysis of the deposited data

Results flagged for a closer look

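Levels after surgery differed between time points for both main members, by the direct contrast of the surgery groups (edgeR quasi-likelihood, adjusted over all tested miRNAs): -1.66 on the log2 scale for miR-29a-3p and -4.49 for miR-29c-3p in S24h against S6h, and -0.88 for miR-29a-3p in S72h against S6h. The last call was lost under 3 of 7 alternative settings and without any one of 4 libraries. Time cannot be told apart here from the set of animals or from the daily analgesia of the S24h and S72h mice.

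Of 19 sets of 6 libraries examined for a library far from the others by Dixon's ratio (gap over range, limit 0.625), 7 held one. Chance gives about 1 in 20 for continuous values, which cannot be applied to 6 of the 7, where 2 to 5 of the 6 libraries had no count and a single library with counts gives a ratio of 1.0 by construction. For miR-29c-3p, S72h replicate 6 was far above its group (ratio 0.71). Those 6 concern the rare 5p arms, which had few counts in any library: miR-29a-5p in S6h replicate 2 (0.636), S24h replicate 1 (1.0) and S72h replicate 3 (0.909), and miR-29c-5p in Control replicate 3 (1.0), S6h replicate 3 (0.703) and S24h replicate 4 (1.0).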

How the results depend on the processing

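The calls of miR-29a-3p and miR-29c-3p at 24 h, against Control and against S6h, kept their direction and passed the threshold under all 7 alternative settings and without any one of the 24 libraries. Log2 changes of miR-29a-3p against Control ranged from -1.31 to -1.16 over the settings and those of miR-29c-3p from -4.02 to -3.59. The call of miR-29a-3p in S72h against S6h was lost with column totals (-0.81), without a filter (-0.74) and with only both groups in the model (-0.85), and ranged from -1.11 to -0.77 when a library was left out. The cause was not tested.

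Numbers of called miRNAs varied more. DESeq2 called 50 at 24 h against Control (30 by edgeR), 21 at 72 h against Control (9) and 4 in S72h against S24h (1). Without a filter there were 2 at 6 h against Control (0) and 10 in S72h against S24h. At 72 h against Control there were 2 with column totals, 1 with 10 CPM in 6 libraries, 0 with only both groups in the model, where none was called in S72h against S24h either, and 1 with the replicate block. Leaving out a library gave 1 to 14 at 72 h against Control (1 without Control replicate 2 or 5 or S72h replicate 5, 14 without S72h replicate 1, and outside 1.5 times the number of 9 for 16 libraries: Control replicates 1, 2, 4, 5 and 6, S6h replicates 1, 2 and 5, S24h replicates 1, 3, 4 and 6, and S72h replicates 1, 2, 3 and 5), 32 to 53 in S24h against S6h (32 without S6h replicate 4 or 6 or S24h replicate 3), 1 to 5 in S72h against S24h (5 without S24h replicate 2 or S72h replicate 2 or 5, 3 without S72h replicate 1, and 2 without S6h replicate 1 or 3 or S24h replicate 6) and 13 to 35 in S72h against S6h (13 without S72h replicate 5, 14 without S6h replicate 4 and 16 without S6h replicate 6). The cause was not tested for these numbers either.

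No clear pairing of the libraries by replicate number was seen. Deviations of same-numbered libraries had a mean correlation of 0.0068 and were over 0.1 in 9 of 36 pairs. For libraries of different number these were -0.0015 and 27 of 180 pairs. All pairs of groups were pooled, so that a pairing between only some of the groups was not tested. With the replicate block, the log2 ratio tests that passed no longer did, with the same differences of -3.06 (miR-29c-3p to miR-29a-3p, 24 h against Control, adjusted p = 0.167, exact), -3.54 (24 h against S6h, adjusted p = 0.125, exact) and -2.51 (miR-29a-3p to miR-29a-5p, adjusted p = 0.125, exact). With 6 pairs the smallest p the exact sign-flip test can give is 0.031, before adjustment. When a library was left out, the first of these ranged from -3.63 to -2.67, and the ratio of the arms at 72 h against Control from -2.71 to -1.44, with the test passed without Control replicate 2 or S72h replicate 6.

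miR-29c-3p in S72h against S24h ranged from 2.18 to 4.29. miR-29b-3p, never called, changed sign in S72h against S24h with the replicate block (0.35) and without S24h replicate 2 (0.23, range from -1.60), and at 6 h against Control without Control replicate 1 (0.13, range from -0.66).

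Depth limits miR-29c-3p, miR-29b-3p and both 5p arms, since a single read amounts to 10 CPM or more in 9 libraries.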
